A study of Homo sapiens with 6 samples.

Results

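The suppressor of cytokine signaling (SOCS) family is made of 8 genes, SOCS1 to SOCS7 and CISH, and its transcripts were measured by RNA-seq in A549 cells, a human non-small cell lung cancer line of epithelial origin. The members were taken by gene symbol and not by any measured value, although earlier results of these data were known when the family was chosen. All 8 had a row among the 29889 genes with at least 1 read, and all 8 were among the 15847 genes that passed the filter on low counts. The CELF6-OE group held 3 libraries of cells transfected with the plasmid pIRES-hrGFP-1a carrying CELF6, an RNA-binding protein, and the Control group held 3 libraries of cells given the empty plasmid. Both groups were transfected with Lipofectamine 2000 and harvested after 48 h, so cells of both groups had met plasmid DNA and lipid. Replicates were described as biological, the transfection was transient, and the same cell line was used throughout. The transcripts are those of a mixed population, in which fewer transfected cells and less RNA per cell cannot be told apart.

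SOCS proteins are intracellular brakes on cytokine receptors. A cytokine activates Janus kinases (JAK) bound to its receptor, these phosphorylate STAT transcription factors, and STAT dimers switch on target genes, several SOCS genes among them. The SOCS proteins then bind phosphorylated receptors or kinases through an SH2 domain, and their SOCS box recruits elongin B, elongin C and cullin 5 to tag the bound proteins with ubiquitin. SOCS1 and SOCS3 also carry a short region that blocks JAK catalysis directly.

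Total read counts ranged from 33748328 to 35413404 in CELF6-OE and from 36422617 to 37920700 in Control. CELF6 had 18646, 20789 and 11571 reads in the CELF6-OE libraries and 0 reads in each Control library. All 6 epithelial keratin and adhesion markers reached 1 FPKM (fragments scaled to transcript length and to the mapped fragments of the library) in at least 1 library, and their summed level was 5040 to 5790 FPKM in CELF6-OE and 6180 to 7030 FPKM in Control. Of 8 alveolar type II cell markers 2 reached 1 FPKM, ABCA3 and LAMP3, with a summed level of 4.33 to 6.68 FPKM in CELF6-OE and 18.7 to 19.8 FPKM in Control. Of 9 leukocyte markers 2 did, CD14 and CD68, with 6.99 to 8.40 FPKM in CELF6-OE and 12.6 to 13.2 FPKM in Control, and CD3E was at 0 in every library. Endothelial and fibroblast markers summed to at most 0.07 and 0.47 FPKM. The part of the alveolar and leukocyte lists in the SOCS results was not tested.

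The 250 bases before the transcription start of SOCS1 and CISH are shown because both genes are well known as targets of STAT factors, and because SOCS1 was called lower and CISH was not. Whether the changes of these genes differ from each other was not tested. The sequences are RefSeq promoter windows (GRCh38.p14), at chr16:11256205-11256454 and chr3:50611775-50612024. Both are on the minus strand and are written 5′ to 3′ in the direction of transcription. Capitals mark matches to the STAT dimer motif TTCNNNGAA, which is its own reverse complement, or to the core of the interferon-stimulated response element, GAAANNGAAA or TTTCNNTTTC, searched on both strands.
SOCS1: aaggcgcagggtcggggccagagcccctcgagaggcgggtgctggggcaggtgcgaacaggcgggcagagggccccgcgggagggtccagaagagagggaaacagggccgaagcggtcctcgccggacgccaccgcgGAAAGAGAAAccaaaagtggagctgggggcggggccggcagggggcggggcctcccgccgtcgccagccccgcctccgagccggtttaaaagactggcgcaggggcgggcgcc
CISH: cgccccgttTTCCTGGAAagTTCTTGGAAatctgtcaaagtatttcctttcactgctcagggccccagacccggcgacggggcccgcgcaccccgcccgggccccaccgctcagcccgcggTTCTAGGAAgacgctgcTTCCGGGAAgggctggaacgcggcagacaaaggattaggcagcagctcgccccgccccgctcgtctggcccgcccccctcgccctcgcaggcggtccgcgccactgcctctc

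The CISH window held 4 STAT dimer matches, at -241, -230, -129 and -112 from the start, none of which overlapped another. Among 35116 RefSeq promoter windows of the same length, 6.57% held at least 1 such match and 5 windows, or 0.0142%, held 4 or more. The SOCS1 window held 1 interferon-stimulated response element core, at -113, a motif found in 3.02% of all windows. The RefSeq windows of SOCS4 and SOCS6 held no match to either motif. SOCS2, SOCS5 and SOCS7 had no window. A match describes the letters in a window only. The printed windows were rich in G and C, with 74.0% G and C in SOCS1 and 68.8% in CISH.

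**Figure D1:**
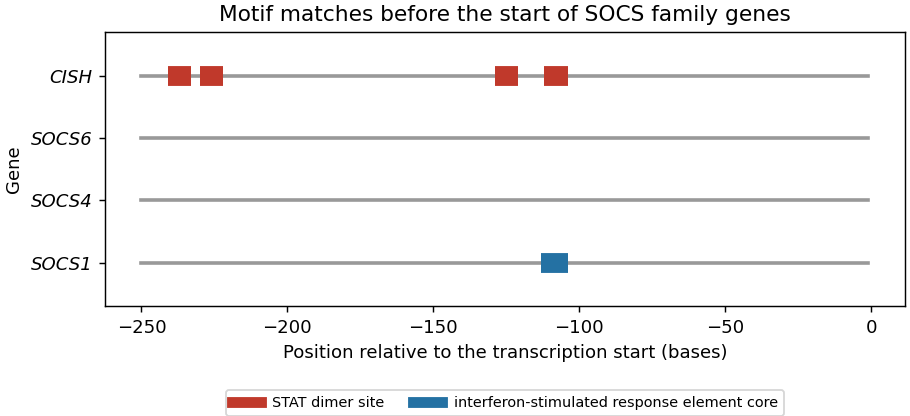
Positions of motif matches in the 250 bases before the transcription start. The horizontal axis gives bases relative to the start, grey lines are the windows searched, red blocks are STAT dimer matches and blue blocks are interferon-stimulated response element cores. CISH carried 4 red blocks, SOCS1 carried 1 blue block, and SOCS4 and SOCS6 carried none.

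SOCS1 and SOCS3, the 2 members that inhibit JAK catalysis, were lower in CELF6-OE, SOCS1 by 49.8% and SOCS3 by 31.7%. The other 6 members did not pass the test, and SOCS7 came nearest to it from the opposite side, with a fold of 1.24. In the quasi-likelihood test of edgeR, with p-values adjusted over all genes tested by the method of Benjamini and Hochberg, 2 of 8 members were called lower and 0 higher at an adjusted p under 0.05, beside 11.5% of all genes tested called lower and 6.47% called higher. SOCS7 was higher at an unadjusted p under 0.05. No share of all genes was taken at that threshold, so this is no result about the family. DESeq2 and limma-voom also called SOCS7 higher, beside 976 and 1063 of 15847 genes called higher. By the call rule of the study's methods, p under 0.01 with a fold change of at least 1.5, 1 member was lower, SOCS1, beside 5.91% of all genes, and 0 were higher, beside 1.36%. The study also gives its rule with the adjusted p in place of the p-value. At an adjusted p under 0.05 with the same fold change, SOCS1 was again the 1 member lower, beside 5.82% of all genes, and 0 were higher, beside 1.35%. The median log2 fold change was -0.02 over the 8 members and 0.01 over all genes tested.

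SOCS1, which binds JAK1, JAK2 and TYK2 and is the main brake on interferon signaling, lies at chr16:11254417-11256204 on the minus strand (GRCh38, GENCODE v44). Its 633 coding bases sit in 1 of 2 exons. Its read counts were 50, 53 and 66 in CELF6-OE and 117, 117 and 121 in Control. The level was 1.12, 1.17 and 1.53 FPKM in CELF6-OE and 2.52, 2.42 and 2.50 FPKM in Control, with means of 1.27 ± 0.224 and 2.48 ± 0.0529 FPKM (SD, n = 3 each). Every CELF6-OE library was below every Control library, and CELF6-OE replicate 3, which had the fewest CELF6 reads, was the highest of its group. The log2 fold change was -0.99 (SE 0.16, 95% confidence interval -1.36 to -0.63, adjusted p = 0.00196). Exact Poisson intervals of the counts, which cover counting error only, ran from 37.1 to 84.0 in CELF6-OE and from 96.8 to 145 in Control and so did not meet. RMI2, a gene on the opposite strand that overlaps SOCS1, had a log2 fold change of -0.09 (SE 0.071, adjusted p = 0.394). The kit was stranded, but whether the counting used strand is not given in the sources used here, so reads of the overlap cannot be assigned with certainty.

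SOCS3, the inhibitor of signaling through gp130, the shared receptor subunit of the IL-6 cytokines, lies at chr17:78356778-78360077 on the minus strand, with its 675 coding bases in 1 exon. It was the most abundant member in every library. Its read counts were 1048, 1248 and 1122 in CELF6-OE and 1616, 1777 and 1869 in Control. The level was 10.56, 12.32 and 11.62 FPKM in CELF6-OE and 15.6, 16.49 and 17.33 FPKM in Control, with means of 11.5 ± 0.886 and 16.5 ± 0.865 FPKM (SD, n = 3 each). The highest CELF6-OE library was replicate 2, which had the most CELF6 reads, unlike the order seen for SOCS1. It stayed below the lowest Control library. A relation of either gene to the number of CELF6 reads was not tested. The log2 fold change was -0.55 (SE 0.082, 95% confidence interval -0.73 to -0.37, adjusted p = 0.00102), which is smaller than 1.5-fold.

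CISH, the founding member of the family and an inhibitor of STAT5 signaling, lies at chr3:50606489-50611774 on the minus strand and overlaps MAPKAPK3 on the other strand. Since the strand setting of the counting is unknown, reads of this overlap cannot be assigned with certainty. The read counts of CISH were the lowest of the family, 46, 39 and 35 in CELF6-OE and 48, 48 and 62 in Control. The level was 0.57, 0.47 and 0.45 FPKM in CELF6-OE and 0.57, 0.55 and 0.71 FPKM in Control. CELF6-OE replicate 1 matched Control replicate 1, so the groups overlapped. The log2 fold change was -0.32 (SE 0.21, 95% confidence interval -0.78 to 0.13, adjusted p = 0.308). Its interval spans both a fall larger than that of SOCS3 and a small rise, so the estimate is too imprecise to tell these apart. SOCS2, a regulator of growth hormone signaling and the closest relative of CISH, lies at chr12:93569814-93583487 on the plus strand. Its level was 1.27, 1.53 and 1.26 FPKM in CELF6-OE and 1.15, 1.22 and 1.5 FPKM in Control, and the groups overlapped, with a log2 fold change of 0.04 (SE 0.14, 95% confidence interval -0.26 to 0.34, adjusted p = 0.872). SOCS2-AS1, the antisense gene that overlaps SOCS2, had 48, 73 and 43 reads in CELF6-OE and 42, 69 and 68 in Control. Its log2 fold change was -0.06 (SE 0.25, adjusted p = 0.896), and since the strand setting of the counting is unknown the reads of this pair may be shared.

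SOCS4 and SOCS5, members with long N-terminal regions that have been tied to the epidermal growth factor receptor, lie at chr14:55027230-55049489 and chr2:46698952-46780245, both on the plus strand. SOCS5 overlaps LINC01118, a non-coding gene on the same strand, so reads of that overlap cannot be assigned with certainty. SOCS4 had 1.90, 1.97 and 1.89 FPKM in CELF6-OE and 2.11, 1.66 and 1.35 FPKM in Control. The CELF6-OE values all fell inside the Control range, and the log2 fold change was 0.14 (SE 0.13, 95% confidence interval -0.14 to 0.43, adjusted p = 0.464). SOCS5 had 2.89, 3.36 and 3.17 FPKM in CELF6-OE and 3.99, 3.16 and 2.66 FPKM in Control, again within the Control range, with a log2 fold change of -0.08 (SE 0.12, 95% confidence interval -0.35 to 0.18, adjusted p = 0.665). In both genes the Control libraries were the more widely spread.

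SOCS6 and SOCS7, members linked to insulin receptor and receptor tyrosine kinase signaling, lie at chr18:70289045-70330199 and chr17:38351844-38405593 on the plus strand. SOCS6 had 4.17, 4.62 and 4.23 FPKM in CELF6-OE and 5.02, 4.08 and 3.22 FPKM in Control. The Control values enclosed those of CELF6-OE, and the log2 fold change was 0.06 (SE 0.12, 95% confidence interval -0.21 to 0.32, adjusted p = 0.787). SOCS7, whose coding sequence spans 9 exons, more than in any other member, had 1.83, 1.92 and 1.70 FPKM in CELF6-OE and 1.64, 1.31 and 1.36 FPKM in Control. The lowest CELF6-OE library was above the highest Control library. The log2 fold change was 0.31 (SE 0.10, 95% confidence interval 0.09 to 0.53) with an unadjusted p of 0.00914 and an adjusted p of 0.0506, just past the threshold. It fell under 0.05 in 8 of 21 alternatives, with adjusted p-values from 0.00877 to 0.224, so SOCS7 was not called. On counts scaled to library size by TMM factors (trimmed mean of M values), 3 of 8 members did not overlap between the groups, SOCS1 and SOCS3 lower and SOCS7 higher, beside 37.9% of all genes tested.

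**Figure D2:**
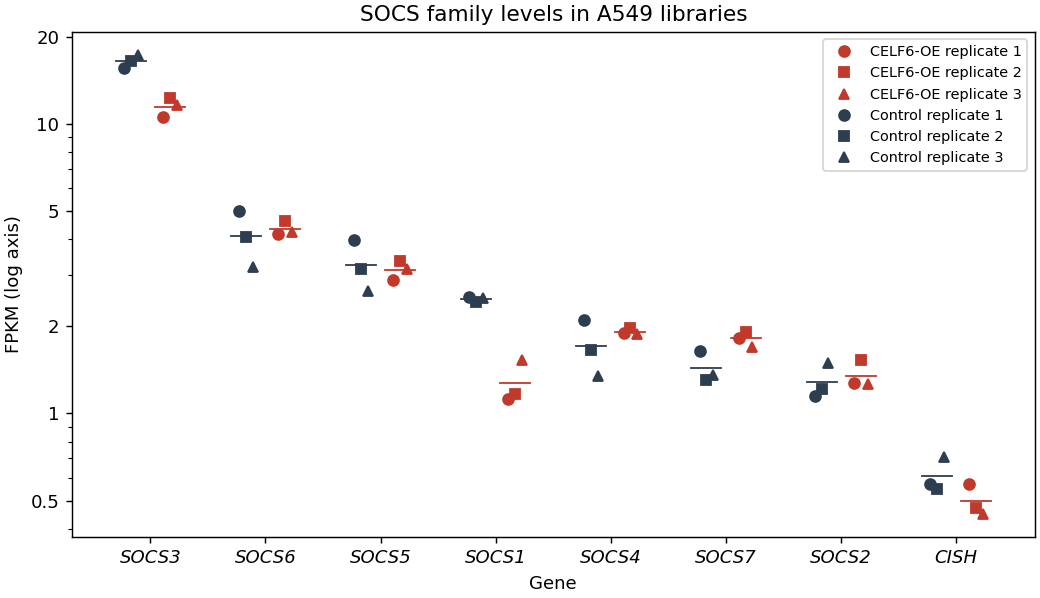
Level of each SOCS family gene in the 6 libraries, in FPKM on a log axis, ordered by the Control mean. Points are libraries (dark for Control, red for CELF6-OE, the shape gives the replicate) and short lines are group means of 3 libraries. The red and dark points of SOCS1, SOCS3 and SOCS7 do not overlap.

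**Figure D3:**
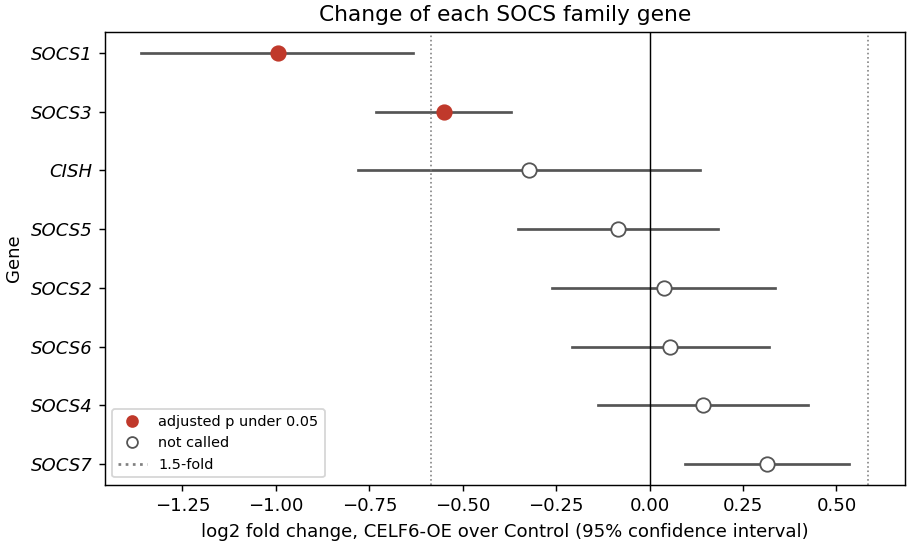
Log2 fold change of each member, CELF6-OE over Control, with a 95% confidence interval computed from the edgeR test statistic. Filled points have an adjusted p under 0.05 and dotted lines mark 1.5-fold. SOCS1 at -0.99 and SOCS3 at -0.55 are filled, and the interval of SOCS7 lies above 0 although its adjusted p was 0.0506.

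The order of the members differed between the groups in the place of SOCS1. By mean FPKM, a scale per transcript length, the Control order was SOCS3, SOCS6, SOCS5, SOCS1, SOCS4, SOCS7, SOCS2 and CISH. Neighbours with overlapping ranges were SOCS6 and SOCS5, SOCS4 and SOCS7, and SOCS7 and SOCS2. In CELF6-OE the order was SOCS3, SOCS6, SOCS5, SOCS4, SOCS7, SOCS2, SOCS1 and CISH, with overlap between SOCS4 and SOCS7 and between SOCS2 and SOCS1. SOCS1 thus moved from rank 4 to rank 7. In Control its level was above all 3 libraries of SOCS4. In CELF6-OE its mean of 1.27 FPKM lay inside the SOCS2 range of 1.26 to 1.53 FPKM. Its libraries at 1.12 and 1.17 FPKM lay below that range.

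The summed FPKM of the 8 members was 24.3, 27.4 and 25.8 in CELF6-OE and 32.6, 30.9 and 30.6 in Control, with means of 25.8 ± 1.53 and 31.4 ± 1.07 (SD, n = 3 each). All CELF6-OE sums were below all Control sums. Without SOCS3 the sums were 13.8, 15.0 and 14.2 in CELF6-OE and 17, 14.4 and 13.3 in Control, which overlapped. SOCS3 made up 43.4%, 45.0% and 45.0% of the sum in CELF6-OE against 47.9%, 53.4% and 56.6% in Control, and the means differed by -8.13 percentage points. The share of SOCS1 was 4.61%, 4.28% and 5.92% in CELF6-OE against 7.73%, 7.83% and 8.16% in Control, and the means differed by -2.97 points. Shares add to a fixed total, so the smaller shares of SOCS3 and SOCS1 left larger ones to other members. The mean share of SOCS6 was 16.8% in CELF6-OE and 13% in Control, that of SOCS7 was 7.04% and 4.57%, and that of SOCS4 was 7.44% and 5.42%, with no overlap between groups. The shares of SOCS5, SOCS2 and CISH overlapped. With SOCS3 left out of the sum, the means differed by 3.02 points for SOCS7, 2.9 for SOCS6, 2.04 for SOCS4 and 0.583 for SOCS2. They differed by 0.0735 for SOCS5, -0.693 for CISH and -7.92 for SOCS1. The part of the fixed total in the larger shares was not tested. With 3 libraries against 3, a two-sided exact permutation test cannot give a p under 0.1, the value reached by each share that did not overlap.

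**Figure D4:**
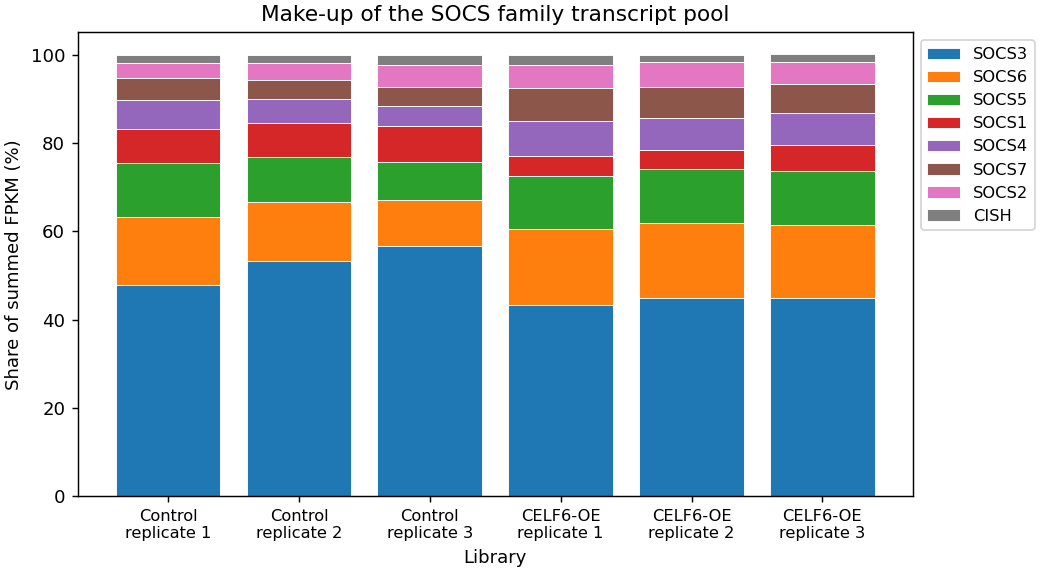
Make-up of the summed FPKM of the SOCS family in each library, as stacked bars that start at 0% and add to 100%. SOCS3, the lowest block, made up 47.9% to 56.6% in Control and 43.4% to 45.0% in CELF6-OE, and the SOCS1 block was smaller in each CELF6-OE library than in each Control library.

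The level of SOCS1 as a percentage of SOCS3 was 10.6%, 9.50% and 13.2% in CELF6-OE and 16.2%, 14.7% and 14.4% in Control. The groups did not overlap, and the mean log2 ratio differed by -0.46 (two-sided exact permutation p = 0.1, the smallest this design allows). This pair was chosen after the values of both genes were seen.

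The genes whose log2 library-scaled counts most resembled SOCS1 across the 6 libraries were PLEKHA4 (Pearson r = 0.9996), the interferon-induced gene IFI27 (r = 0.9993) and TECPR2 (r = 0.9992). PLEKHA4 had 210, 227 and 463 reads in CELF6-OE and 1910, 1992 and 2050 in Control. CELF6-OE replicate 3 was the highest of its group in SOCS1 too. For SOCS3 they were IFNAR2, a subunit of the type I interferon receptor (r = 0.9994), MFI2 (r = 0.9981) and DUSP5, a phosphatase that acts on ERK (r = 0.9973). IFNAR2 had 761, 847 and 778 reads in CELF6-OE and 969, 1024 and 1047 in Control, so its log2 fold change of -0.28 was smaller than that of SOCS3. An r above 0.99 was reached by 149 genes for SOCS1 and 39 for SOCS3, and since all 6 points share the same libraries and the 2 groups lie apart, r describes the pattern only.

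The other genes of the pathway were read from 8 lists, 170 genes in all, of which 122 were tested. Of these, 43 were called lower and 4 higher, with a median log2 fold change of -0.19 against 0.01 over all genes. The shares of all genes tested to set beside the counts of each list are the 11.5% called lower and 6.47% called higher given above. Cytokine ligands had 6 of 13 tested genes lower and 0 higher (median -1.03), among them IFNL1 at -3.17 (SE 0.14, adjusted p = 3.8e-07), IFNL2 at -3.12 (SE 0.19, adjusted p = 5.13e-06) and IFNB1 at -3.08 (SE 0.26, adjusted p = 3.16e-05), which encode type III and type I interferons. The median of -1.03 was the value of a ligand with 1 to 16 reads per library that was not called (SE 0.56, adjusted p = 0.224). IFNL2 and IFNL3 are nearly identical, and both were among the 6 called. With uniquely mapped reads alone the reads that fit both are lost, so their levels are uncertain. Cytokine receptors had 12 of 20 lower and 1 higher (median -0.30). IL2RG, the common gamma chain, changed by -2.38 (SE 0.21, adjusted p = 3.89e-05), IL15RA by -1.37 (SE 0.15, adjusted p = 0.000108) and OSMR, the oncostatin M receptor that SOCS3 restrains, by -0.59 (SE 0.067, adjusted p = 0.000179). IL6R, the receptor for IL-6, rose by 0.39 (SE 0.11, adjusted p = 0.0339), a call kept in 15 of 21 alternatives.

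JAK kinases and STAT factors, the direct targets and users of SOCS feedback, had 6 of 11 genes lower and 0 higher (median -0.42). STAT5A fell by 1.25 on the log2 scale (SE 0.13, adjusted p = 0.000109), STAT2 by 1.01 (SE 0.14, adjusted p = 0.000686) and STAT3, the factor that SOCS3 holds back after IL-6, by 0.40 (SE 0.058, adjusted p = 0.000794). STAT5A had a mean of 0.447 FPKM in CELF6-OE and 1.05 FPKM in Control. Its more abundant paralog STAT5B, at 5.99 and 5.83 FPKM, was not called (log2 fold change 0.008, SE 0.07, adjusted p = 0.947). Known target genes of STAT3 and STAT5 had 14 of 29 lower and 0 higher (median -0.34). In neither of these lists, nor among the ligands, was a gene higher at an unadjusted p under 0.05 in edgeR, or called higher by DESeq2 or limma-voom. IRF1, an interferon regulatory factor, changed by -1.09 (SE 0.086, adjusted p = 2.01e-05), JUNB by -0.69 (SE 0.076, adjusted p = 0.000145) and ZFP36, which degrades cytokine mRNAs, by -0.67 (SE 0.075, adjusted p = 0.000158). On the same scale SOCS1, at -0.99, stood beside STAT2 and IRF1, and the value of SOCS3 lay between those of STAT3 and JUNB.

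Inhibitors of the pathway other than the SOCS family had 3 of 17 genes lower and 1 higher (median -0.01). ISG15 fell by 1.46 on the log2 scale (SE 0.14, adjusted p = 6.39e-05), USP18, which blocks the type I interferon receptor, by 1.02 (SE 0.13, adjusted p = 0.000285) and PTPN6, the phosphatase SHP-1, by 0.56 (SE 0.080, adjusted p = 0.000788). PTPN11, the phosphatase SHP-2, which shares a docking site on gp130 with SOCS3, rose by 0.43 (SE 0.092, adjusted p = 0.00877), a call kept in 19 of 21 alternatives. Partners of the SOCS box in the ubiquitin ligase had 0 of 9 genes called in either direction by edgeR, DESeq2 or limma-voom (median 0.11), and 1 was higher at an unadjusted p under 0.05. Other proteins with a SOCS box had 2 of 15 lower and 2 higher (median 0.05), SPSB1 at -0.25 and ASB4 at -0.87 against ASB2 at 0.87 and WSB2 at 0.22, calls kept in 11, 12, 18 and 14 of 21 alternatives. Receptor tyrosine kinases and adaptors that SOCS proteins bind had 1 of 10 lower, IRS2 at -0.41, kept in 14 of 21 alternatives, and 0 higher (median -0.01), with 1 higher at an unadjusted p under 0.05 and 0 by DESeq2 or limma-voom. The list counts just given, 3 of 17, 0 of 9, 2 of 15 and 1 of 10 lower, lie near the 11.5% of all genes for lists this small. The counts higher, 1, 0, 2 and 0, likewise lie near the 6.47% of all genes. They are no result about the lists. All list counts are descriptions of lists, which differ in the number of genes and in their read depth.

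**Figure D5:**
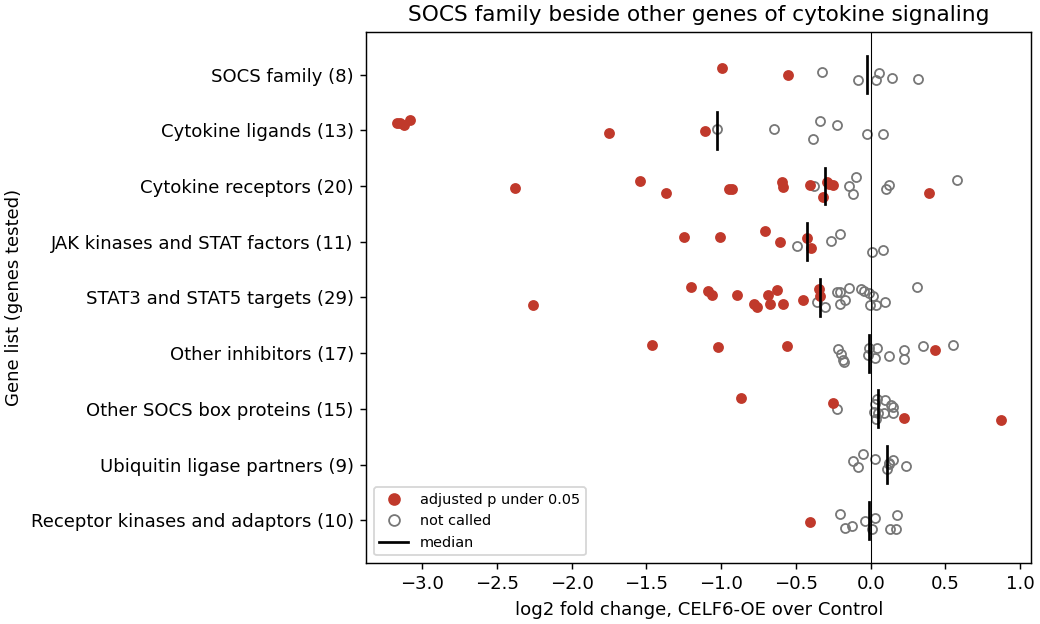
Log2 fold change, CELF6-OE over Control, of the SOCS family and of 8 lists of related genes. Each point is a gene that was tested, filled points have an adjusted p under 0.05, black bars are medians and the number tested stands in parentheses. Ligands, receptors, JAK and STAT genes and STAT targets hold most filled points on the left. The ubiquitin ligase partners hold none, which for 9 genes is near the share of all genes.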

How the data were processed

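Polyadenylated RNA of 6 A549 cultures was sequenced as paired-end stranded libraries. Per the study's methods, the authors trimmed reads (FASTX-Toolkit), placed them on GRCh38 by TopHat2 and took uniquely mapped reads for a deposited table of counts per gene and a deposited table of FPKM, in which counts are divided by transcript length and mapped fragments; the counter, the annotation and the strand setting are not given in the sources used here. Multi-mapped reads are absent, so near-identical genes lose reads.

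Counts were tested with edgeR 4.0.16 (R 4.3.3): TMM scaling, filterByExpr with a minimum count of 10, and the quasi-likelihood test with Benjamini-Hochberg adjustment over 15847 genes. Two-sided exact permutation tests over libraries served for values per library. FPKM was used for levels between genes. Limma 3.58.1 and DESeq2 1.42.0 gave alternatives. The test was checked on simulated counts. The members, gene lists and markers were chosen with earlier results of these data known. Named were the members, CELF6 and up to 3 called genes per list and direction with the smallest p. Genes whose symbol extends a member's were also named, as were the 3 genes most correlated with each called member. RMI2, MAPKAPK3, LINC01118 and IFNL3 were named outside these rules for shared sequence or position, and STAT5B as the paralog of STAT5A. ABCA3, LAMP3, CD14, CD68 and CD3E were named as cell type markers at or over 1 FPKM or at 0.

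Total counts of 33748328 to 37920700 per library left 35 to 1869 reads for a member. Replicates differed by 7.67 to 29.3 times the Poisson expectation (chi-square per degree of freedom), and p-values measure the spread between cultures of 1 line. Promoter windows came from a RefSeq table and were searched for SOCS1, SOCS4, SOCS6 and CISH; that of SOCS3 is not reported here. The labels gave no batch.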

Additional observations from a re-analysis of the deposited data

How the results depend on the processing

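SOCS1 and SOCS3 kept an adjusted p under 0.05 and their direction in 21 of 21 alternatives. In the fits of counts the log2 fold changes were -1.15 to -0.918 for SOCS1 and -0.617 to -0.493 for SOCS3. On log2(FPKM + 1) the differences were -0.619 and -0.484. The added 1 shrinks differences at low levels, so these are on another scale. The count of members called lower was 1 by the rule of p under 0.01 with a fold change of 1.5, and 1 with an adjusted p under 0.05 and that fold, a rule added after the data were seen. The count called higher was 1, SOCS7, under RLE size factors (log2 fold change 0.315), upper quartile scaling (0.332), no filter on low counts (0.306), DESeq2 (0.315), limma-voom (0.317), edgeR's likelihood ratio test (0.314) and edgeR's exact test (0.314). Leaving out each library in turn, it ranged from 0 to 2, and was 2, SOCS4 and SOCS7, without Control replicate 1. In those fits the log2 fold change ranged from 0.257 to 0.386 for SOCS7, 0.0174 to 0.291 for SOCS4, -0.0677 to 0.183 for SOCS2 (reversed without CELF6-OE replicate 2, at -0.0551, and without Control replicate 1, at -0.0677), -0.197 to 0.048 for SOCS5 (reversed without Control replicate 1) and -0.0763 to 0.191 for SOCS6 (reversed without Control replicate 3), and from -0.439 without CELF6-OE replicate 1 to -0.18 without Control replicate 3 for CISH, which was not called in any of them. The difference in the CISH share ranged from -0.22 to 0.17 percentage points and was reversed at 0.0938, 0.0823 and 0.17 without CELF6-OE replicate 2, CELF6-OE replicate 3 and Control replicate 3. Listed genes called higher numbered 0 with limma on log2(FPKM + 1) without a filter, 1 by either rule with a fold change, and 0 to 11 leaving out each library in turn, 11 without Control replicate 1. The cause of these changes was not tested.

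The labels number the replicates but do not state a pairing. Deviations of same-numbered libraries correlated at -0.0113, -0.0212 and -0.0722. These values cannot tell whether cultures were paired, because larger differences between libraries can hide a weak shared effect. With the replicate block SOCS1 stood at -1 and SOCS3 at -0.55, and 2 members were called lower and 0 higher. All genes called then fell to 1570 lower and 720 higher from 1820 and 1025. Calls of IL6R, SPSB1, ASB4, ASB2, WSB2, PTPN11 and IRS2 were lost in at least 2 alternatives each. With library size only, 54.1% of called genes were lower instead of 64.0%, and the median of all genes was 0.05. CISH had the fewest reads of the members, 35 to 62, and the largest SE, 0.21. The part of depth in that SE was not tested.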
